A study of Mus musculus with 16 samples.

Results

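Ly86, Cd68, Fcgr3, Igsf6, F13a1, Hk3 and Acod1 are 7 genes typical of monocytes and macrophages, and they were followed by bulk RNA sequencing in mouse bone marrow cells. The members were picked by gene symbol, and all 7 were found among the 6288 genes of the deposited table. The samples were CD45+ cells of the marrow after enrichment of Lin-Kit+Sca1+ (LSK) cells, a fraction that contains stem cells and multipotent progenitors. The 16 libraries formed 4 groups of 4. Tet2-deficient physioxia libraries came from Tet2-/- mice (CD45.2) whose cells stayed at 3% O2, and Tet2-deficient air libraries came from such cells after 6 hours at about 21% O2. WT physioxia and WT air libraries came from C57Bl/6J mice (CD45.2) handled in the same 2 ways. All mice were 3 to 4 months old, male and female mice were used, and the marrow of every group was flushed and enriched at 3% O2 before the air groups were moved out. C57Bl/6J is the strain label of all 16 samples. The comparisons ask how loss of Tet2, and how exposure of the cells to ambient air, change these transcripts.

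Tet2 is a dioxygenase that needs oxygen and 2-oxoglutarate to oxidise 5-methylcytosine in DNA, and its loss in marrow is known to favour self-renewal and to alter myeloid differentiation. Monocytes and macrophages arise from granulocyte-macrophage progenitors under factors such as PU.1 (encoded by Spi1), C/EBP and IRF proteins, and sense microbes and immune complexes through Toll-like and Fc gamma receptors. Acod1, also called Irg1, encodes the mitochondrial enzyme that makes itaconate from cis-aconitate in activated macrophages, and itaconate slows succinate dehydrogenase and engages the NRF2 antioxidant response. Several of the other members are also transcribed in granulocyte-macrophage progenitors and granulocytes, so none of them marks 1 cell type alone.

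The regulatory letters in front of these genes are shown first, because PU.1 and C/EBP motifs are typical of monocyte promoters. The sequences are the 250 bases before the RefSeq start (GRCm38.p6), read 5′ to 3′ on the gene's strand, with every match to a motif searched in capitals. Shown are the gene with the greatest genotype difference (Acod1, chr14:103046762-103047011, plus strand) and the 2 whose windows matched the most motifs (Fcgr3, chr1:171059404-171059653, minus strand, and Cd68, chr11:69666171-69666420, minus strand).
Acod1: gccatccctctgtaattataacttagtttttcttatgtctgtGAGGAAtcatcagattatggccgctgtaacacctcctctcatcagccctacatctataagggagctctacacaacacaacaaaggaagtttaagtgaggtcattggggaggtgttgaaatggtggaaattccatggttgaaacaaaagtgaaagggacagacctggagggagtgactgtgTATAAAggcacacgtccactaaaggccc
Fcgr3: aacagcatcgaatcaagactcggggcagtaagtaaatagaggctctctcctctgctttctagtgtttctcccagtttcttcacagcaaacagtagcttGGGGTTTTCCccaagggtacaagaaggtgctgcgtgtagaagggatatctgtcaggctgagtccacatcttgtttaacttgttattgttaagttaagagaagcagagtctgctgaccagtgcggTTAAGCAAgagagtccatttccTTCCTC
Cd68: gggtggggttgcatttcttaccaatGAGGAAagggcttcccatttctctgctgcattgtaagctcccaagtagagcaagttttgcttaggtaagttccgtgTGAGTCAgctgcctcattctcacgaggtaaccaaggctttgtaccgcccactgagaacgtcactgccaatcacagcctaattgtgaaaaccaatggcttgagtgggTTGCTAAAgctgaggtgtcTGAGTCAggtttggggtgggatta
Motifs were searched on both strands of all 32851 RefSeq windows of this length. The PU.1 core (GAGGAA) was present in 6 of the 7 windows, all but that of Ly86, and in 23.2% of all windows. The C/EBP letters (TTGCNNAA) were in the Fcgr3 and Cd68 windows, against 9.56% of all windows. Acod1 had the TATA box letters (TATAAA) 28 to 23 bases before its start, and 12.4% of all windows hold them anywhere. The NF-kB letters (GGG and, after any 3 bases, TTCC) were in the Fcgr3 window and in 4.65% of all windows. The AP-1 letters (TGANTCA) were present at 2 places in the Cd68 window and in 6.75% of all windows. The IRF letters (GAAA and, after any 2 bases, GAAA again) were in none of the 7 and in 2.98% of all windows. No 2 matches overlapped. Fcgr3 and F13a1 have 2 RefSeq windows each, of which the first listed was used. The Fcgr3 window lies inside the longer gene span of the GENCODE annotation. The windows of Acod1, Ly86 and Igsf6 reach partly into their gene spans there, and for Acod1 this part holds the TATA box letters. A match of letters is a description and says nothing of binding.

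The table held 7770456 to 15683867 reads per library, as read counts divided by a size factor (normalized counts below). Tet2 itself had 447 to 530 normalized counts in Tet2-deficient physioxia and 592 to 812 in WT physioxia. In air Tet2 had 506 to 626 in Tet2-deficient cells against 650 to 993 in WT air. A whole-gene count checks such a genotype only in part, since reads can come from the retained exons. Kit, a marker of the enriched fraction, was at 2029 to 7542 normalized counts in all 16 libraries. Ptprc, which encodes CD45, was not among the genes tested. Some libraries stood apart: WT physioxia replicate 2 had the lowest Kit (2029) and the highest share of reads in its 10 most abundant genes (20.3%). WT replicates 1 and 2 of both oxygen conditions had higher mean log2 levels of monocyte, dendritic, and T and NK cell markers than WT replicates 3 and 4. Tet2-deficient physioxia replicate 2 and Tet2-deficient air replicate 3 had the highest erythroid levels. The labels call the replicates biological without saying whether each is 1 mouse or a pool.

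All 7 genes were lower in Tet2-deficient than in WT cells, in physioxia and in air, and in each condition the 4 Tet2-deficient libraries lay below the 4 WT libraries for all 7. Acod1 differed most, at 9.46 times lower mean level in physioxia and 19.2 times in air. Ly86 (4.64 and 3.63 times) and Fcgr3 (2.83 and 2.48 times) came next, and Cd68, Hk3, F13a1 and Igsf6 differed by 1.40 to 1.88 times. Each difference was tested by limma on log2(normalized count + 1), with a Benjamini-Hochberg adjusted p under 0.05 over the 6110 genes tested as the threshold. All 7 passed in physioxia, where 33.6% of tested genes were called lower, 35.9% higher and 69.4% in either direction. All 7 passed in air, where 37.4% were called lower, 42.1% higher and 79.5% in either direction. Groups that did not overlap, with the Tet2-deficient libraries lower, were found for 28.0% of tested genes in physioxia and 35.5% in air. The median log2 difference of the 7 was −0.82 in physioxia and −0.90 in air, against 0.06 and 0.24 over all tested genes. In these bulk libraries fewer cells of a type and less RNA per cell cannot be told apart.

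**Figure D1:**
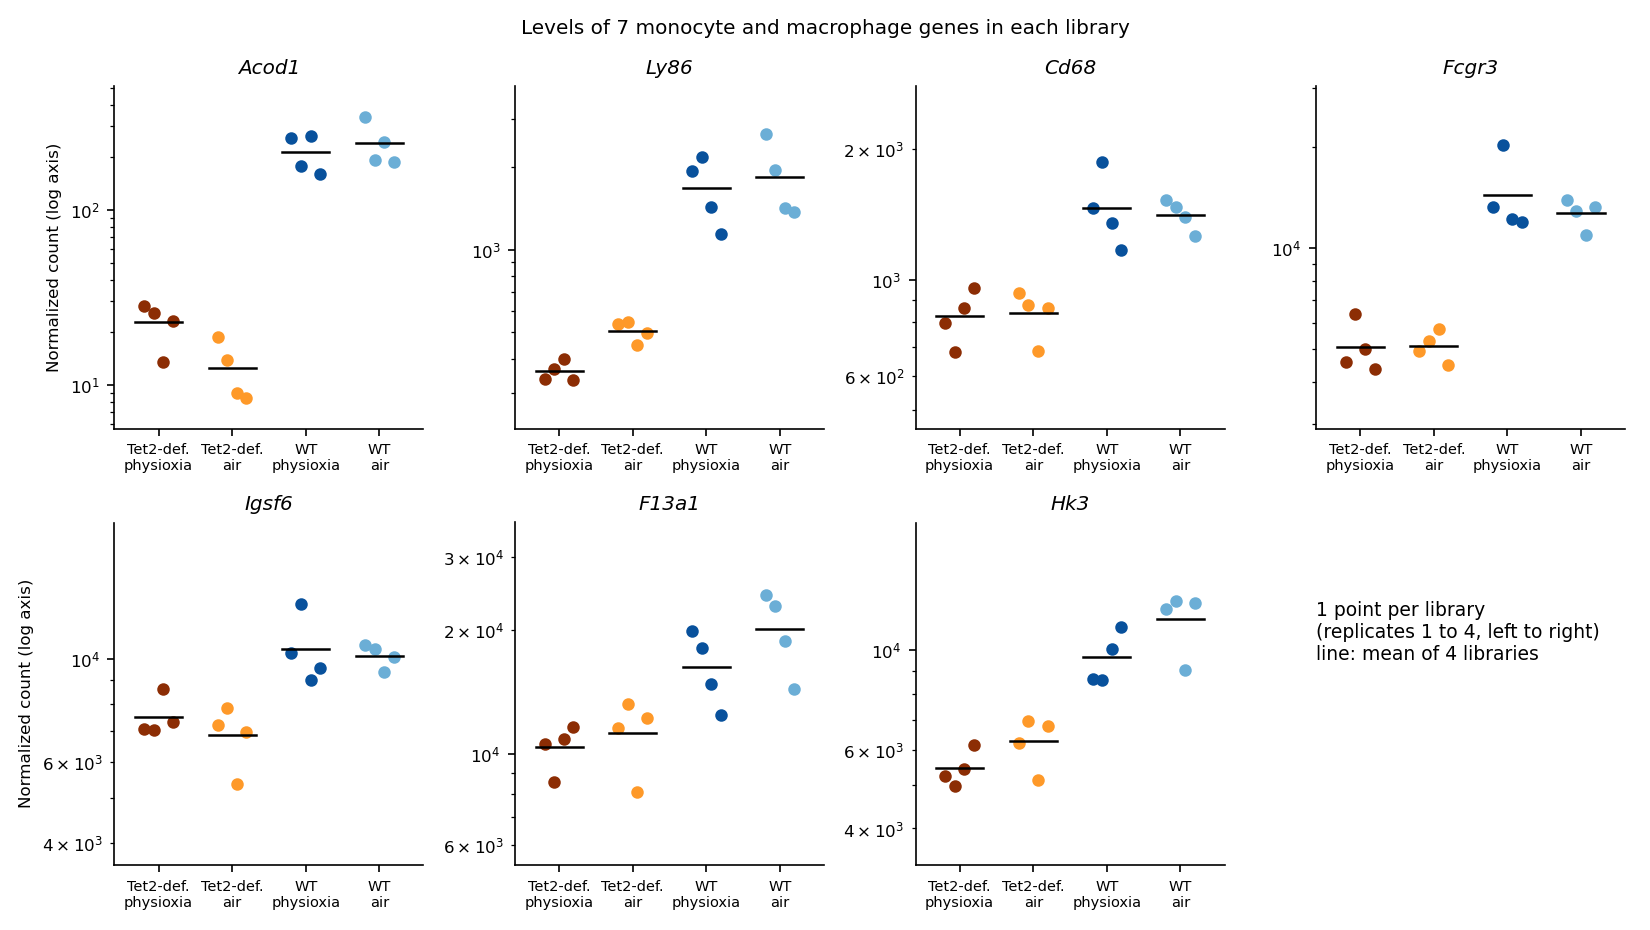
Normalized counts of the 7 genes on log axes, 1 point per library and a line at the mean of 4, with the Tet2-deficient groups left of the WT groups. For every gene the points of a Tet2-deficient group lie below those of the WT group at the same oxygen level, with the widest gap for Acod1 (8.46 to 18.8 in Tet2-deficient air, 188 to 340 in WT air).

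Acod1 had the lowest level of the 7. It had 28.4, 25.9, 13.6 and 23.2 normalized counts in Tet2-deficient physioxia replicates 1 to 4, against 257, 178, 266 and 160 in WT physioxia. In air it had 18.8, 13.9, 9.01 and 8.46 in the Tet2-deficient replicates, against 340, 192, 243 and 188 in WT. The lowest WT library thus held several times the level of the highest Tet2-deficient library at either oxygen level. The Tet2-deficient values rest on few reads, 10 to 27 per library in physioxia and 9 to 23 in air, where WT libraries held 188 to 273 and 191 to 354. The fitted log2 difference was −3.20 ± 0.30 (SE) in physioxia (adjusted p = 7.84e-07) and −4.18 ± 0.30 in air (adjusted p = 4.49e-08). Of the 6110 tested genes, 86 in physioxia and 38 in air had a log2 difference at or below that of Acod1, itself included.

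Hk3 encodes hexokinase 3, the hexokinase of myeloid cells, which phosphorylates glucose. It had 5251, 4971, 5443 and 6142 normalized counts in Tet2-deficient physioxia, against 8625, 8597, 10068 and 11293 in WT physioxia. In air its levels were 6203, 6945, 5123 and 6762 in Tet2-deficient cells, against 12340, 12871, 9051 and 12730 in WT cells. The groups did not overlap, and WT air replicate 3 lay well below the other 3 of its group. The log2 difference was −0.82 ± 0.14 in physioxia (adjusted p = 0.000164) and −0.90 ± 0.14 in air (adjusted p = 6.96e-05).

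Ly86 encodes MD-1, the secreted partner of the Toll-like receptor homologue RP105. It had 339, 367, 401 and 335 normalized counts in Tet2-deficient physioxia, against 1940, 2176, 1432 and 1142 in WT physioxia. Its levels in air were 536, 548, 449 and 498 in Tet2-deficient cells, against 2626, 1944, 1422 and 1371 in WT cells. The Tet2-deficient libraries were tightly grouped and the WT libraries spread widely, with replicates 1 and 2 above 3 and 4 at both oxygen levels. The coefficient of variation was 8.43% and 8.75% in the Tet2-deficient groups (physioxia and air) and 28.1% and 31.7% in the WT groups. The log2 difference was −2.17 ± 0.21 in physioxia (adjusted p = 8.49e-07) and −1.81 ± 0.21 in air (adjusted p = 5.76e-06).

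Fcgr3 encodes the activating low-affinity Fc gamma receptor III, which binds IgG immune complexes. It had 4598, 6373, 5024 and 4362 normalized counts in Tet2-deficient physioxia, against 13222, 20254, 12210 and 11986 in WT physioxia. Air libraries held 4952, 5303, 5747 and 4499 in Tet2-deficient cells, against 13899, 12873, 10924 and 13237 in WT cells. The highest Tet2-deficient library was far below the lowest WT library, and WT physioxia replicate 2 stood above the rest of its group. The log2 difference was −1.48 ± 0.16 in physioxia (adjusted p = 3.16e-06) and −1.31 ± 0.16 in air (adjusted p = 1.05e-05). Fcgr3 and Fcgr2b have closely similar sequences, and how the authors' counting treated reads that match both is not given in the sources used here.

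Igsf6, which encodes an immunoglobulin-domain membrane protein of myeloid cells, had the smallest genotype difference. It had 7051, 7026, 8627 and 7319 normalized counts in Tet2-deficient physioxia, against 10321, 13185, 9025 and 9563 in WT physioxia. In the air groups it reached 7220, 7823, 5376 and 6955 in Tet2-deficient cells, against 10733, 10517, 9370 and 10133 in WT cells. The groups did not overlap, though in physioxia the highest Tet2-deficient library came close to the lowest WT library. The log2 difference was −0.48 ± 0.13 in physioxia (adjusted p = 0.00562) and −0.59 ± 0.13 in air (adjusted p = 0.00166). In physioxia the adjusted p was 0.114 after quantile normalization and 0.0511 when annotated genes outside the table were counted as unchanged.

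Cd68 encodes macrosialin, a glycoprotein of late endosomes and lysosomes that is widely used as a macrophage marker. It had 794, 681, 862 and 955 normalized counts in Tet2-deficient physioxia, against 1465, 1867, 1355 and 1170 in WT physioxia. The levels in air were 931, 873, 686 and 863 in Tet2-deficient cells, against 1529, 1471, 1393 and 1262 in WT cells. The groups did not overlap at either oxygen level. The log2 difference was −0.82 ± 0.15 in physioxia (adjusted p = 0.000316) and −0.76 ± 0.15 in air (adjusted p = 0.000561).

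F13a1 encodes the A subunit of coagulation factor XIII, a transglutaminase that cross-links fibrin and that monocytes and macrophages produce. It had 10537, 8546, 10872 and 11640 normalized counts in Tet2-deficient physioxia, against 19840, 18007, 14782 and 12429 in WT physioxia. After air exposure it had 11538, 13171, 8050 and 12239 in Tet2-deficient cells, against 24282, 22812, 18751 and 14384 in WT cells. The gap between groups was narrow, and WT replicate 4 was the lowest of its group at both oxygen levels. The log2 difference was −0.63 ± 0.19 in physioxia (adjusted p = 0.00916) and −0.83 ± 0.19 in air (adjusted p = 0.00191). In physioxia the adjusted p was 0.123 after quantile normalization and 0.0832 with the annotated genes counted as unchanged.

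Per kilobase of exon, the order of the members differed little between groups. In WT air Fcgr3 was highest at 7335 ± 737 normalized counts per kilobase (SD, n = 4), followed by Igsf6 at 4684 ± 275, Hk3 at 3191 ± 492, F13a1 at 2976 ± 660, Cd68 at 1125 ± 92.0, Ly86 at 507 ± 161 and Acod1 at 91.8 ± 27.1. Hk3 and F13a1 lay within their spread of each other there. In Tet2-deficient air Igsf6 (3146 ± 480 per kilobase) and Fcgr3 (2952 ± 305) lay within their spread of each other, as did Hk3 (1700 ± 223) and F13a1 (1669 ± 332), and Cd68 (667 ± 84.2), Ly86 (140 ± 12.2) and Acod1 (4.78 ± 1.85) followed. In Tet2-deficient physioxia Igsf6 was at 3451 ± 349 per kilobase, Fcgr3 at 2932 ± 518, F13a1 at 1543 ± 196, Hk3 at 1481 ± 136, Cd68 at 655 ± 92.0, Ly86 at 99.3 ± 8.37 and Acod1 at 8.68 ± 2.47. In WT physioxia the order was that of WT air, with Fcgr3 at 8305 ± 2263 per kilobase and Acod1 at 82.09 ± 20.52.

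Oxygen changed none of the 7 past the threshold in either genotype. For physioxia minus air in Tet2-deficient cells, limma, edgeR's quasi-likelihood test and DESeq2 each called 0 of the 7. Over all 6110 genes limma called 0%, with 280 genes at an unadjusted p under 0.05, edgeR called 0 genes and DESeq2 8. Acod1 and Ly86 were the 2 members at an unadjusted p under 0.05. Acod1 averaged 22.8 ± 6.47 normalized counts in Tet2-deficient physioxia and 12.5 ± 4.84 in Tet2-deficient air (SD, n = 4 each), with overlapping libraries. Its log2 difference was 0.83 ± 0.30 (limma, unadjusted p = 0.0151, adjusted p = 0.963). Ly86 averaged 361 ± 30.4 in Tet2-deficient physioxia and 508 ± 44.4 in Tet2-deficient air, with libraries that did not overlap. Its log2 difference was −0.49 ± 0.21 (limma, unadjusted p = 0.0314, adjusted p = 1), and 1.42% of tested genes were lower in physioxia without overlap. The other 5 members had log2 differences of −0.19 to 0.14.

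In WT cells physioxia minus air likewise gave 0 of the 7 by all 3 tools and 0 at an unadjusted p under 0.05 by limma, where 5.76% of tested genes were called. The log2 differences of the members in WT cells spanned −0.30 ± 0.19 for F13a1 to 0.15 ± 0.16 for Fcgr3. F13a1 was lower in physioxia than in air in 4 of the 4 same-numbered WT pairs, and with the replicate number as a block its adjusted p by limma was 0.284. Hk3 had the smallest p of the 7 there (log2 difference −0.28 ± 0.14, limma, unadjusted p = 0.0562, adjusted p = 0.271), averaging 9646 ± 1295 in WT physioxia and 11748 ± 1812 in WT air (SD, n = 4 each). The test of whether the oxygen difference depended on genotype called 0 of the 7 and 0% of all genes by limma, with 546 genes and Acod1 alone among the members at an unadjusted p under 0.05. For that test edgeR called 0 genes and DESeq2 11, none of them a member. Acod1 had an interaction of 0.98 ± 0.43 on the log2 scale (limma, unadjusted p = 0.0367, adjusted p = 0.552). Its genotype differences of −3.20 in physioxia and −4.18 in air are thus not shown to differ. The 2 genotype contrasts share no library, but they use the same estimate of the spread. The labels also say that enriched cells were split between the oxygen conditions, so these 2 contrasts are not independent of each other. Each oxygen contrast shares its libraries with them.

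**Figure D2:**
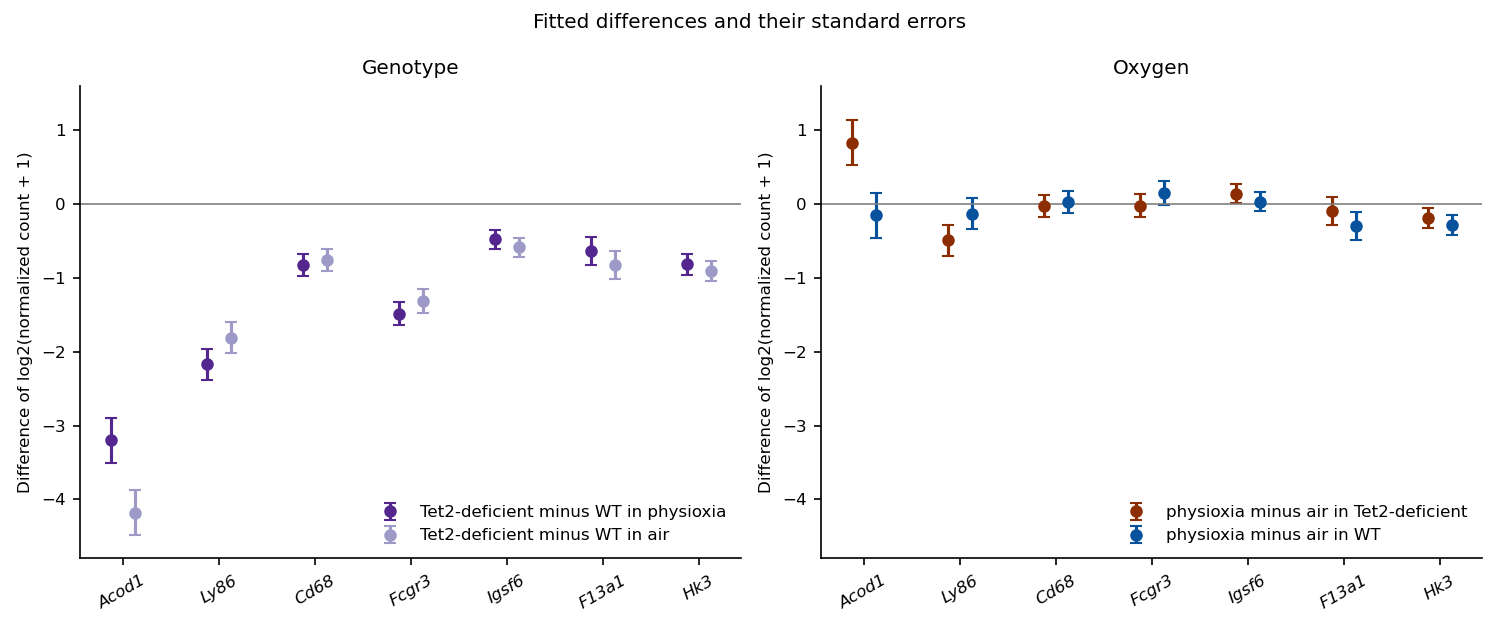
Fitted log2 differences of the 7 genes with standard errors as bars, for Tet2-deficient minus WT (left) and physioxia minus air (right). All 14 genotype differences lie below 0, from −0.48 to −4.18, while the oxygen differences lie between −0.49 and 0.83.

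The members differed in the size of their changes across libraries. Each gene was centred on its own mean over the 16 libraries, on the log2(normalized count + 1) scale. The mean of the 6 genes other than Acod1 was −0.65 to −0.50 in Tet2-deficient physioxia against 0.27 to 0.76 in WT physioxia, and −0.69 to −0.32 in Tet2-deficient air against 0.38 to 0.78 in WT air. Acod1 minus that mean was −1.59 to −0.43 in Tet2-deficient physioxia against 0.77 to 1.74 in WT physioxia, and −2.27 to −1.23 in Tet2-deficient air against 0.97 to 1.68 in WT air. Acod1 therefore lay beyond the mean of the other 6 in the same direction in all 16 libraries. With centring over both genotypes, this largely restates its larger genotype difference and is not a separate result. The most alike pair was Cd68 and Igsf6, with a root mean square difference of 0.19 over the 16 centred libraries. Acod1 was most like Ly86, at 1.05, and least like Igsf6, at 1.65. This measure depends on the size of each gene's genotype difference. Correlations between members were not computed, so it does not show whether members rose and fell together.

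Single libraries shaped the spread within groups. WT air replicate 1 was the highest of its group for 6 of the 7 genes, all but Hk3. WT physioxia replicate 2 was the highest for Ly86, Cd68, Fcgr3 and Igsf6 and the lowest for Hk3, and WT physioxia replicate 4 was the lowest for 5 of the 7. Tet2-deficient air replicate 3 was the lowest of its group for Ly86, Cd68, Igsf6, F13a1 and Hk3, and the highest for Fcgr3. All 7 remained called in air without WT air replicates 1 and 2, and all 7 without Tet2-deficient air replicates 3 and 4.

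**Figure D3:**
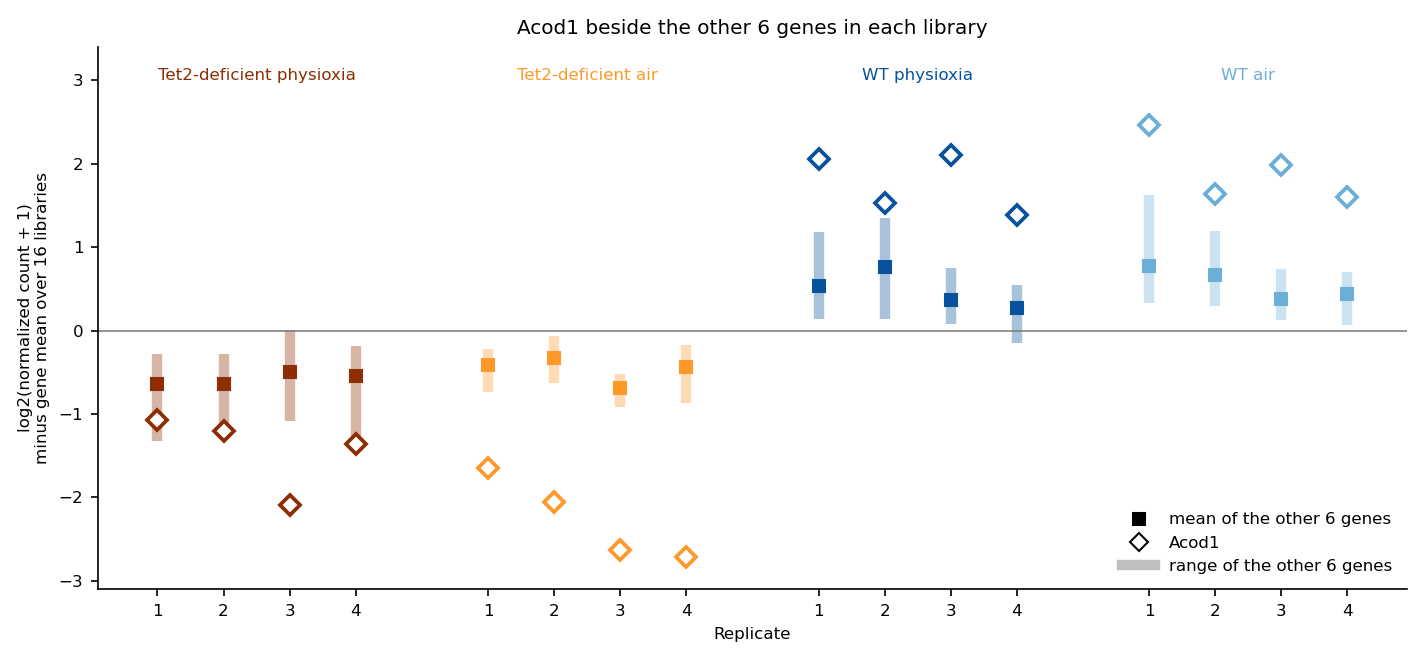
Centred log2(normalized count + 1) in each of the 16 libraries, with squares for the mean of the 6 genes other than Acod1, bars for their range and open diamonds for Acod1. Acod1 lies below the squares in all 8 Tet2-deficient libraries, by 0.43 to 2.27, and above them in all 8 WT libraries, by 0.77 to 1.74.

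Other genes of monocytes and macrophages were mostly lower in Tet2-deficient cells too. Of a list of 67 identity genes, 42 were in the table and 41 were tested. In physioxia 30 were lower and 2 higher, and in air 31 were lower and 2 higher, with a median log2 difference of −1.02 and −0.88. Csf2ra, the alpha chain of the GM-CSF receptor, averaged 2472 ± 345 normalized counts in Tet2-deficient physioxia and 5250 ± 451 in WT physioxia, a log2 difference of −1.09 ± 0.11. The lysosomal proteases Ctsz and Lgmn had log2 differences of −0.66 ± 0.09 and −2.03 ± 0.28 in physioxia and −0.80 ± 0.09 and −1.72 ± 0.28 in air. Itgb2, the beta-2 integrin chain, was at −1.02 ± 0.20 and −1.13 ± 0.20, and Trem1, an activating receptor of myeloid cells, at −0.74 ± 0.15 and −0.78 ± 0.15. The chemokine gene Ccl9 was lower by −0.97 ± 0.16 and −0.45 ± 0.16. The 2 that were higher were Emilin2 and Klf4, and neither was called with annotated genes counted as unchanged or, in air, without Tet2-deficient air replicates 3 and 4. Ccl9 lost its call in air with annotated genes counted as unchanged, under quantile normalization and without WT air replicates 1 and 2. Without WT air replicates 1 and 2 the list had 13 lower in air, and without Tet2-deficient air replicates 3 and 4 it had 17. With annotated genes counted as unchanged, 20 were lower in physioxia and 16 in air. Defining genes such as Csf1r, Ccr2, Ly6c2 and Cd14 were not among the 41 tested, so these counts cover only part of the list.

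Transcription factors of the lineage split in both directions. Of 18 listed, 11 were tested. In physioxia 6 were lower and 5 higher, and in air 5 were lower and 5 higher. Spi1, which encodes PU.1, averaged 8925 ± 1258 normalized counts in Tet2-deficient physioxia and 14461 ± 1651 in WT physioxia. Its air means were 9033 ± 802 in Tet2-deficient cells and 14280 ± 991 in WT cells. Its log2 difference was −0.70 ± 0.12 in physioxia (limma, adjusted p = 0.000159) and −0.66 ± 0.12 in air (adjusted p = 0.000249). Irf5, a factor of inflammatory macrophages, differed by −0.77 ± 0.18 and −0.76 ± 0.18, Bhlhe40 by −1.38 ± 0.26 and −1.46 ± 0.26 and Maf by −0.99 ± 0.27 and −1.32 ± 0.27. Zeb2 was also lower in both. The higher genes were Egr1 (2.14 ± 0.35 in physioxia and 2.51 ± 0.35 in air), Nr4a1 (1.11 ± 0.18 and 1.18 ± 0.18), Batf2 (1.91 ± 0.30 and 2.08 ± 0.30), Egr2 and Klf4. Egr1, Egr2 and Nr4a1 are also immediate early genes of many cell types. With annotated genes counted as unchanged, 4 were lower and 3 higher in physioxia, where Klf4, Irf8, Zeb2 and Egr2 lost their calls, and Klf4 lost its call in air. Quantile normalization ended the calls of Zeb2 and Irf8 in physioxia and of Klf4 in air, and Klf4 was also not called in air without Tet2-deficient air replicates 3 and 4.

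Genes of inflammatory activation, the setting in which Acod1 is known to be induced, were mostly lower. Of 41 listed, 24 were tested. In physioxia 19 were lower and 3 higher, and in air 16 were lower and 5 higher, with medians of −0.95 and −0.84. The cytokine gene Il6 averaged 12.25 and 20.01 normalized counts in Tet2-deficient physioxia and air, and 108 and 106 in the WT groups. Its log2 differences were −3.03 ± 0.28 and −2.42 ± 0.28. The chemokine gene Cxcl10 differed by −1.88 ± 0.21 and −1.89 ± 0.21, and Clec4e, the receptor Mincle for mycobacterial lipids, by −1.71 ± 0.15 and −1.56 ± 0.15. Nfkbia, the inhibitor and target of NF-kB, was at −1.12 ± 0.16 and −0.96 ± 0.16, and the adhesion molecule gene Icam1 at −1.09 ± 0.22 and −1.20 ± 0.22. Slc7a2, a cationic amino acid transporter, was higher, averaging 30.6 and 39.3 normalized counts in Tet2-deficient physioxia and air and 13.7 and 4.58 in the WT groups, and Socs3 and Ebi3 were higher in both conditions. Socs3 lost its call in air under quantile normalization, with annotated genes counted as unchanged, without WT air replicates 1 and 2, and without Tet2-deficient air replicates 3 and 4, and Slc7a2 lost its call in physioxia under the first 2 of these. In air 10 of the list were lower without WT air replicates 1 and 2. With annotated genes counted as unchanged, 13 were lower in physioxia and 10 in air.

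Around Acod1, few genes listed for itaconate, the tricarboxylic acid cycle and the NRF2 response were in the table. Most of those that passed the main test were higher in Tet2-deficient cells. Of 11 tested of 31 listed, 6 were higher and 2 lower in physioxia, and 8 were higher and 2 lower in air. The median log2 difference of the list was 0.30 in physioxia and 0.36 in air, against 0.06 and 0.24 over all tested genes. Of all tested genes, 35.9% were called higher in physioxia and 42.1% in air. The tricarboxylic acid cycle genes Cs (citrate synthase), Fh1 (fumarase) and Suclg2 (a succinyl-CoA ligase subunit), and the cytosolic aconitase gene Aco1, were higher by 0.31 to 0.63 in physioxia and 0.36 to 0.48 in air. Nfe2l2, which encodes NRF2, was lower by −0.87 ± 0.09 and −1.01 ± 0.09, and its target Hmox1 by −1.35 ± 0.30 and −0.84 ± 0.30. Another NRF2 target, Nqo1, was higher, by 0.72 ± 0.23 and 1.05 ± 0.23. Clybl, whose product takes part in breaking down an itaconate product, was at 0.16 ± 0.22 and 0.31 ± 0.22 and passed in neither. With annotated genes counted as unchanged, 1 of the list (Aco1) was higher and 2 were lower in physioxia, and 4 were higher and 1 lower in air, where Hmox1 no longer passed. In air 3 were higher and 2 lower without Tet2-deficient air replicates 3 and 4.

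Relatives and partners of the single members differed by family. Of 10 genes listed for Fc gamma receptor signalling other than Fcgr3, 6 were tested, and 4 were lower and 0 higher in either condition. Among these were Fcgr2b, the inhibitory receptor (−0.91 ± 0.11 in physioxia and −0.91 ± 0.11 in air), Fcgr4 (−1.39 ± 0.31 and −1.47 ± 0.31) and the shared signalling chain Fcer1g (−1.31 ± 0.16 and −1.36 ± 0.16). Fgr, a Src family kinase, was at −0.84 ± 0.38 and −0.82 ± 0.38 and the phosphatase gene Inpp5d at 0.08 ± 0.20 and −0.25 ± 0.20, and neither passed. Of 12 genes listed around MD-1, 6 were tested. Of these 6, 5 were lower and 1 higher in physioxia, and 4 were lower and 1 higher in air. The Toll-like receptor gene Tlr2 differed most clearly (−1.74 ± 0.19 and −1.71 ± 0.19), beside Tlr6, Tlr7 and the adaptor Myd88 (−0.30 ± 0.09 and −0.32 ± 0.09). Tlr13 was lower in physioxia (−2.01 ± 0.71) and did not pass in air (−1.44 ± 0.71). Ly96, which encodes the MD-1 relative MD-2, was higher by 0.74 ± 0.27 and 0.81 ± 0.27, at 52.2 and 60.3 normalized counts in Tet2-deficient physioxia and air and 31.2 and 34.2 in the WT groups, and this call was lost under quantile normalization. With annotated genes counted as unchanged, 1 of the 6, Tlr2, was called in either condition.

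None of the other hexokinase and transglutaminase genes tested was called lower, unlike Hk3 and F13a1. Only 2 of 5 hexokinase genes and 2 of 7 transglutaminase and factor XIII genes listed were tested. Hk1 was higher in physioxia (0.73 ± 0.21, adjusted p = 0.00695) and did not pass in air (0.38 ± 0.21), and the ADP-dependent glucokinase Adpgk was at 0.07 ± 0.31 and 0.70 ± 0.31 and passed in neither. The transglutaminase gene Tgm2 was higher, by 1.43 ± 0.16 and 1.45 ± 0.16, and Epb42, a red cell membrane protein of the same family, by 1.91 ± 0.55 and 2.14 ± 0.55. With annotated genes counted as unchanged, Hk1 and Epb42 lost their calls in physioxia. Epb42 was also not called in air without Tet2-deficient air replicates 3 and 4. Under quantile normalization Hk1 and Adpgk were called higher in air, and Adpgk also was without WT air replicates 1 and 2. Lamp3, the only relative of Cd68 in the table, was under the minimum level for testing.

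**Figure D4:**
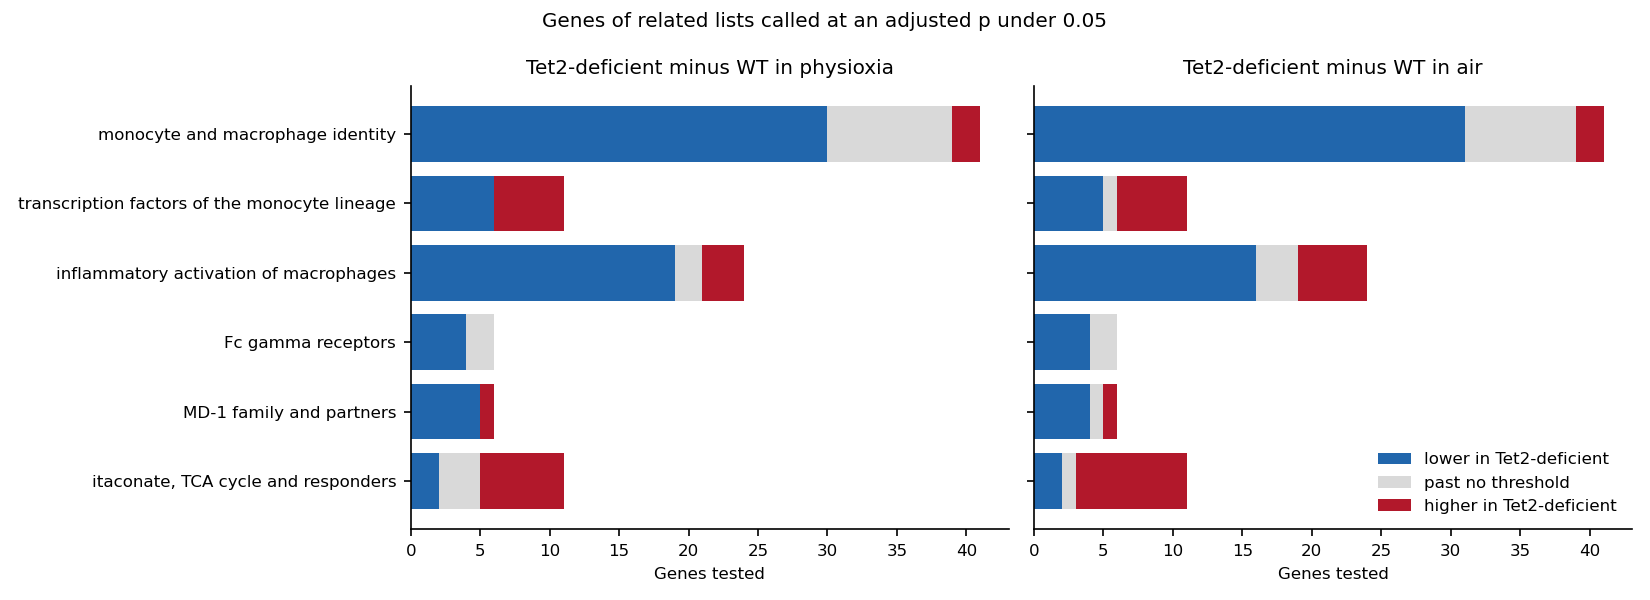
Numbers of tested genes in 6 related lists that were lower, past no threshold or higher in Tet2-deficient than in WT cells, in physioxia (left) and air (right). Lower calls prevail for identity (30 and 31 of 41) and inflammatory activation (19 and 16 of 24), and higher calls for the itaconate and tricarboxylic acid cycle list (6 and 8 of 11).

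Markers of other cell types also differed between the genotypes beside the 7 genes. Listed markers outside the table could not be tested. Tested were 8 of 12 neutrophil, 7 of 8 basophil and mast cell, 11 of 12 T and NK cell and 8 of 12 dendritic cell markers. Also tested were 2 of 11 B cell, 4 of 12 marrow macrophage, 2 of 9 stromal, 9 of 9 erythroid and 4 of 8 stem cell genes. Of 8 neutrophil markers tested, 7 were lower and 0 higher at either oxygen level, with a summed level of 1014 to 1930 normalized counts in Tet2-deficient physioxia against 4837 to 13675 in WT physioxia, and 597 to 1469 in Tet2-deficient air against 2161 to 10883 in WT air. Of 7 basophil and mast cell markers, 7 were lower in physioxia and 6 in air, with sums of 13602 to 18276 in Tet2-deficient physioxia against 56142 to 95503 in WT physioxia, and 11564 to 19344 in Tet2-deficient air against 48199 to 88048 in WT air. Of 11 T and NK cell markers, 9 were lower and 1 higher in either condition. Their sums were 18068 to 25968 in Tet2-deficient physioxia against 27053 to 44226 in WT physioxia, and 17875 to 25974 in Tet2-deficient air against 29690 to 34393 in WT air. In air 4 of the T and NK cell list were lower without WT air replicates 1 and 2, and 4 without Tet2-deficient air replicates 3 and 4. With annotated genes counted as unchanged, 5 were lower in physioxia and 4 in air. In each of these 1 was higher.

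Of 8 dendritic cell markers 5 were lower and 1 higher in physioxia and 4 were lower and 1 higher in air, with sums of 2974 to 4457 in Tet2-deficient physioxia against 8656 to 17447 in WT physioxia, and 3095 to 4108 in Tet2-deficient air against 8787 to 12361 in WT air. Of 2 B cell genes tested, 2 were lower in physioxia and 1 in air, with sums of 6340 to 8779 in Tet2-deficient physioxia against 18332 to 22262 in WT physioxia, and 6360 to 9565 in Tet2-deficient air against 18132 to 23136 in WT air. Of 4 marrow macrophage genes, 1 was lower and 1 higher in physioxia and 2 were lower and 1 higher in air, with sums of 1894 to 3230 in Tet2-deficient physioxia against 3546 to 5161 in WT physioxia, and 1837 to 2673 in Tet2-deficient air against 4406 to 5873 in WT air. The mean log2 levels of these 4 genes overlapped in physioxia, at 7.00 to 7.88 in Tet2-deficient and 7.56 to 8.64 in WT libraries. They also overlapped in air, at 7.22 to 7.93 and 7.13 to 8.63. Of 2 stromal genes Vcam1, which is also on the macrophage list, was lower in both. Erythroid genes went the other way. Of 9, 8 were higher in physioxia and 9 in air, with sums of 103799 to 254747 in Tet2-deficient physioxia against 34219 to 64430 in WT physioxia, and 108980 to 267104 in Tet2-deficient air against 28504 to 45631 in WT air. Of 8 stem cell genes listed, 4 were tested. All 4, among them Kit, Procr and Hlf, were higher in both. Their sums were 11644 to 17394 in Tet2-deficient physioxia against 4797 to 8595 in WT physioxia. In air they were 11373 to 17743 in Tet2-deficient cells against 7049 to 8964 in WT cells. The marrow macrophage gene C1qc was at 0 in 2 libraries, and no other tested gene of these lists was at 0 in any. The part of these differences in the results for the 7 genes was not tested.

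**Figure D5:**
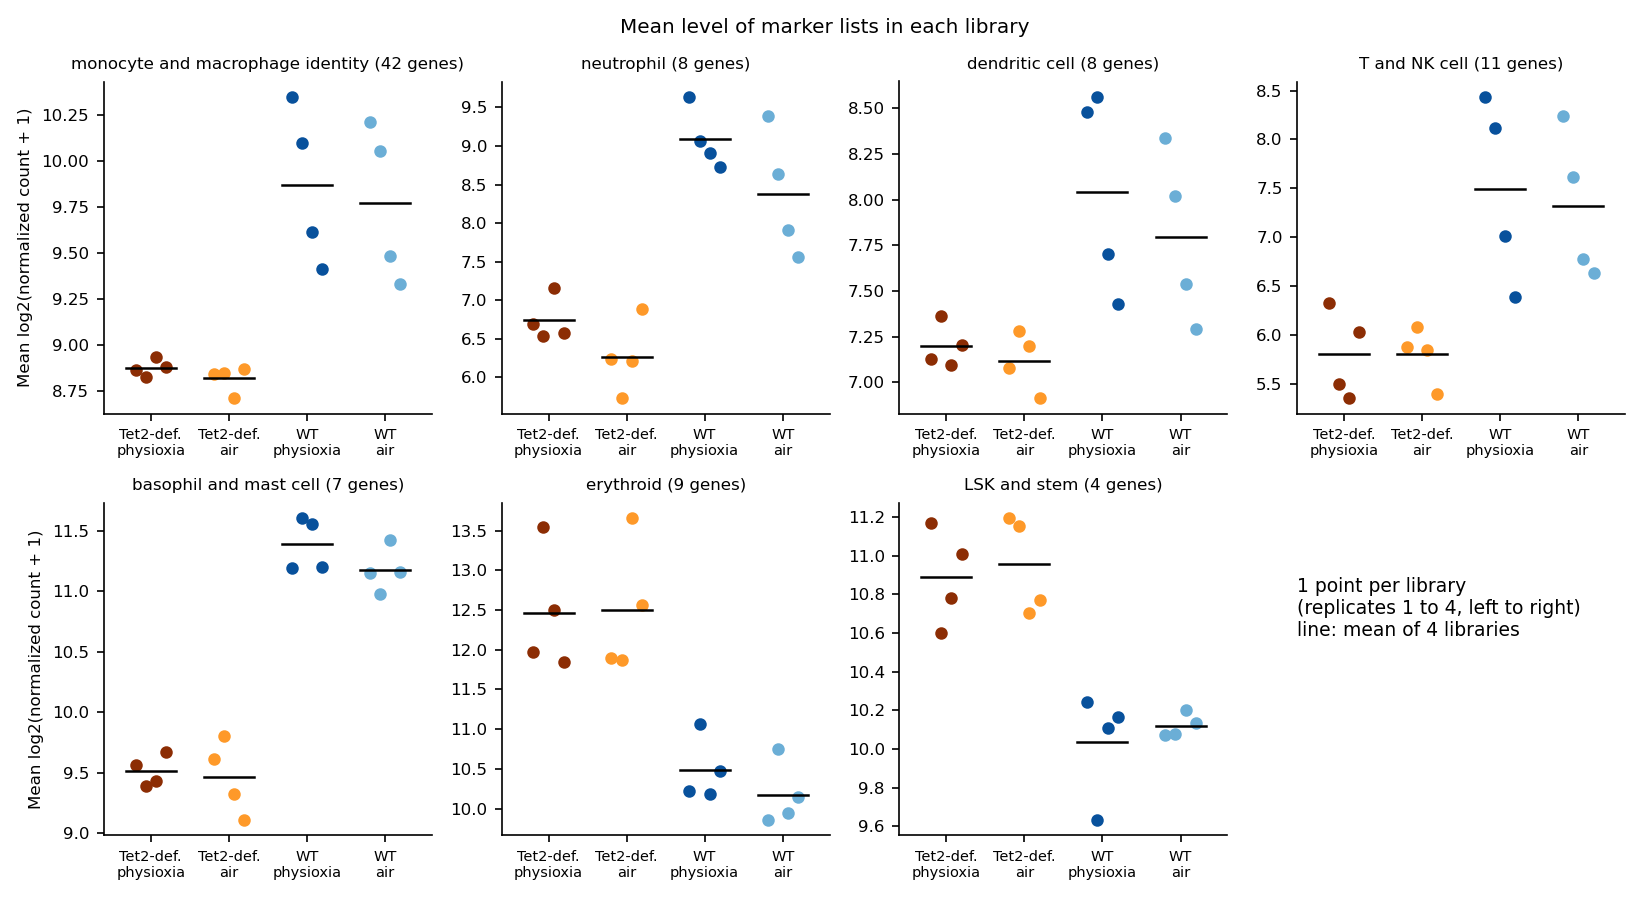
Mean log2(normalized count + 1) of 7 marker lists in each library, 1 point per library and a line at the mean of 4. The monocyte, neutrophil, T and NK, and basophil and mast cell lists lie lower, and the erythroid and stem cell lists higher, in the 8 Tet2-deficient libraries than in the 8 WT libraries, the dendritic cell means overlap (6.91 to 7.36 in Tet2-deficient and 7.29 to 8.56 in WT libraries), and WT replicates 1 and 2 lie above 3 and 4 on the monocyte list.

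Genes with profiles most like those of the members were sought among 4671 tested genes with a mean of at least 50, by the root mean square log2 difference over the 16 centred libraries. Closest to the mean of the 6 genes other than Acod1 were Dok3 (0.12), Fcgr2b (0.13), Asah1 (0.13), Gsn (0.13) and BC035044 (0.14), where the median over candidates was 0.72. Dok3 encodes an adaptor protein of immune cells and Asah1 the lysosomal acid ceramidase. Closest to Acod1 were Inafm2 (0.47), Hist1h4m (0.55), Lrrc25 (0.55), Prss34 (0.57), a basophil protease, and Rsad2 (0.62), an interferon-induced antiviral enzyme, where the median was 2.02. Inafm2 averaged 218 and 181 normalized counts in Tet2-deficient physioxia and air and 2107 and 2590 in the WT groups. For single members the closest were Clec10a for Ly86 (0.27), Arhgap9 for Cd68 (0.11), Ggh for Fcgr3 (0.20), Shcbp1 for Igsf6 (0.10), Irf5 for F13a1 (0.16) and Ctsz for Hk3 (0.17).

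In the genome (GRCm38, GENCODE M21) the 7 genes lie on 5 chromosomes. F13a1 (ENSMUSG00000039109, chr13:36867178-37050244, minus strand) and Ly86 (ENSMUSG00000021423, chr13:37345208-37419036, plus strand) are 295 kilobases apart, and Hk3 lies on the same chromosome (ENSMUSG00000025877, chr13:55005985-55021385, minus strand). Fcgr3 (ENSMUSG00000059498, chr1:171051174-171064935, minus strand) sits in a cluster with Fcgr4 (21.4 kilobases away), Fcgr2b (74.6 kilobases) and Fcer1g (165 kilobases), all lower in Tet2-deficient cells. Of the 11 tested genes within 500 kilobases of Fcgr3, 8 were lower and 2 higher in either condition. Cd68 (ENSMUSG00000018774, chr11:69664213-69666153, minus strand) had 16 such neighbours, of which 4 were lower and 9 higher in physioxia and 7 were lower and 6 higher in air. Among them were the macrophage lectin genes Mgl2 (−2.05 ± 0.20 and −2.04 ± 0.20) and Clec10a (−1.93 ± 0.24 and −1.37 ± 0.24).

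Acod1 (ENSMUSG00000022126, chr14:103046977-103056573, plus strand) is the only member on its chromosome. Igsf6 (ENSMUSG00000035004, chr7:121064067-121074572, minus strand) lies within Mettl9 on the opposite strand, and the end of Hk3 overlaps Unc5a on the opposite strand. Mettl9 was at 0.16 ± 0.15 in physioxia and higher in air (0.57 ± 0.15), and Unc5a was lower, averaging 0.825 and 2.11 normalized counts in Tet2-deficient physioxia and air and 23.0 and 20.1 in the WT groups. Whether the counting used strand is not given in the sources used here, so reads of these overlapping genes may not be told apart.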

How the data were processed

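RNA sequencing libraries of 16 samples were analysed, 4 per group. Per the labels' protocols, RNA with an integrity number over 7 was made into low-input paired-end libraries. FastQC, cutadapt, STAR, HTSeq, DESeq2 and GRCm38 are named in the submitters' processing notes, with no roles or versions. The deposited table, DESeq2-normalized counts by its name, holds a signal: counts divided by a size factor. The authors' values were whole multiples of 1 read within 0.01 (100% of values), so reads were recovered for the count tests. How its 6288 genes were chosen from the 55536 annotated is not given in the sources used here, so shares of called genes describe this table only. Its rows stand in 4 runs of ascending gene identifier. Whether rows were kept for a difference between groups was not tested. Such a choice would raise the shares called, for the members and the lists too.

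The 6110 genes that reached 10 normalized counts in 4 or more libraries (178 did not) were tested with limma 3.58.1 (R 4.3.3) on log2(normalized count + 1), all 16 libraries, a mean per group, an intensity trend and no covariate, two-sided, with Benjamini-Hochberg adjustment over all tested genes. A pseudocount of 1 understates changes of low genes such as Acod1. The fit was tested on simulated data. There few genes were changed, only in Tet2-deficient air, with the same spread setting for all genes. That test therefore does not cover a table in which most genes are called. Alternatives were edgeR 4.0.16 (quasi-likelihood) and DESeq2 1.42.0 on recovered reads, pseudocounts of 0.5 and 8, other filters, quantile normalization, a replicate block, annotated genes outside the table counted as unchanged, and left-out libraries. Per-kilobase levels used GENCODE M21 exons. Errors are SD for levels and SE for log2 differences. P-values measure the spread between these samples.

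Same-numbered WT samples deviated together (correlations of 0.33, 0.18, 0.16 and 0.33 between physioxia and air), and the labels say that enriched cells were split between the conditions. Tet2-deficient samples did not (0.32, −0.27, 0.04 and −0.01). The members and lists were chosen with earlier results of these data known. The rule allowed naming up to 6 called genes per list and condition with the smallest p, all family relatives, the nearest profiles and neighbours within 500 kilobases. Zeb2, Emilin2, Klf4, Egr2, Socs3 and Ebi3, and the missing markers, were named after their values were seen. The text names part of these, and some are not reported here.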

Additional observations from a re-analysis of the deposited data

Results flagged for a closer look

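Among 28 groups of 4 libraries (7 genes in 4 groups), a single library lay far from the other 3 in 2, where chance flags about 1 in 20 groups. Fcgr3 in WT physioxia replicate 2 was at 20254 normalized counts, against 11986 to 13222 in the other 3 WT physioxia libraries. Hk3 in WT air replicate 3 was at 9051, against 12340 to 12871 in the other 3 WT air libraries. The genotype differences of both genes kept their direction and their call without these libraries.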

How the results depend on the processing

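In air all 7 genes stayed lower and past the threshold under all 21 alternatives, with Acod1 at −4.51 to −3.59 on the log2 scale. In physioxia all 7 did so under 17 of 19, and 5 did with quantile normalization (Igsf6 −0.23, F13a1 −0.33) or with annotated genes outside the table counted as unchanged. No alternative called a member for oxygen or for the interaction. With annotated genes counted as unchanged, 2432 genes were called in air, 2477 in physioxia and 0 for oxygen in WT cells. Without Tet2-deficient air replicates 3 and 4, 2760 genes were called in air and 152 for oxygen in Tet2-deficient cells. Oxygen in Tet2-deficient cells gave 1 gene with a pseudocount of 8, 8 by DESeq2 and 0 to 1 with 1 library left out. Oxygen in WT cells gave 548 genes by DESeq2, 128 to 554 with 1 library left out, 0 without WT air replicates 1 and 2, and 0 when WT physioxia replicate 2 was also left out, an alternative chosen after seeing the data. The interaction gave 11 genes by DESeq2 and 0 to 1 with 1 library left out. With the replicate number as a block, 4822 genes were called in air, 4203 in physioxia, 0 for oxygen in Tet2-deficient cells, 462 for oxygen in WT cells and 0 for the interaction, and the block changed no call of a member. With quantile normalization the median of all genes in air was 0.12, against 0.24, and the share of higher among called genes to 46.3%, against 53.01%; for oxygen in WT cells that share was 75.5%, against 85.2%.

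Uncalled oxygen differences of members changed sign as follows, on the log2 scale; the cause was not tested. In Tet2-deficient cells Igsf6 was −0.0071 without air replicates 3 and 4, and with 1 library left out Cd68 spanned −0.12 to 0.060 and Fcgr3 −0.13 to 0.049. In WT cells Cd68 and Igsf6 were −0.038 and −0.073 with quantile normalization, −0.0033 and −0.0079 by edgeR, and −0.017 and −0.021 by DESeq2, and Ly86 was 0.22 without WT air replicates 1 and 2. With WT physioxia replicate 2 also left out, Ly86 was 0.074, Cd68 −0.0016, Igsf6 −0.018 and Acod1 0.056. With 1 library left out, Ly86 spanned −0.27 to 0.056, Cd68 −0.091 to 0.13, Fcgr3 −0.025 to 0.23, Igsf6 −0.081 to 0.10 and Acod1 −0.26 to 0.027. The interaction was −0.061 for F13a1 and −0.030 for Hk3 without WT air replicates 1 and 2, −0.0048 and −0.082 with WT physioxia replicate 2 also left out, and −0.040 for Igsf6 without Tet2-deficient air replicates 3 and 4. With 1 library left out it spanned −0.16 to 0.063 for Cd68, −0.28 to 0.0053 for Fcgr3, −0.0029 to 0.22 for Igsf6 and −0.0069 to 0.21 for Hk3. Depth limits Acod1 most, at 9 to 27 reads per Tet2-deficient library.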

Other observations

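Tet2-deficient physioxia replicate 2 and Tet2-deficient air replicate 3, which carry different numbers, were alike. Their summed erythroid levels were 254747 and 267104 normalized counts, against 103799 to 157999 in the other 6 Tet2-deficient libraries. Each was the lowest of its group for Cd68, Igsf6, F13a1 and Hk3. The correlation of their deviations from the group means over all tested genes was 0.50.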
